A study of Mus musculus with 9 samples.

Results

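Chemokines are small secreted proteins that draw leukocytes along a gradient by binding G protein-coupled receptors. CCL2 and CCL7 bind CCR2 and bring classical monocytes out of the bone marrow and into inflamed tissue. CX3CL1, which is made as a membrane-bound protein, binds CX3CR1 on patrolling monocytes and resident macrophages. CCL3, CCL5 and CCL9 bind CCR1, CCL4 is a close relative of CCL3, and CXCL12 holds blood-forming cells and monocytes in the marrow through CXCR4. In bone, CXCL12 is made mainly by perivascular stromal cells and osteoblast-lineage cells, and CCL9 is a chemokine of myeloid cells and osteoclasts that attracts osteoclast precursors.

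The 10 genes described here are the ligands Ccl2, Ccl3, Ccl4, Ccl5, Ccl7, Ccl9, Cxcl12 and Cx3cl1 and the receptors Ccr2 and Cx3cr1. They were taken by symbol from the 55367 genes of a table of RNA-Seq read counts from whole osteosarcomas of genetically engineered mice, and each symbol was found once. The p53-driven group held 4 tumors, named F187, F325, F331 and F368, from mice of genotype Col2.3-Cre/TrpP53fl/+, in which Cre under the osteoblast-specific Col2.3 promoter deletes 1 floxed allele of Trp53. The Myc-knockin group held 5 tumors, M9, M351, M408, M624 and M664, from mice with the same Cre and the same floxed allele (p53fl/+) that carry in addition a Lox-Stop-Lox (LSL) c-MycT58A transgene, which Cre switches on. Both groups therefore shared the Cre and the Trp53 deletion, and the tumors arose spontaneously. The age and sex of the sequenced mice were not given, but Myc-knockin mice of this study were sacrificed at a younger typical age, so that age and genotype cannot be told apart. No sample label holds a column name of the table. Of the 9 column names, 6 match cell line names listed by genotype in the study's supporting data, while M351, M9 and M664 were placed with the Myc-knockin tumors by their letter. Myc itself, the targeted gene, was at 43.5 to 67.1 CPM (counts scaled to a common library size with TMM factors) in the p53-driven tumors and at 144 to 1045 CPM in the Myc-knockin tumors, with no overlap.

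The libraries were uneven. Total counts ran from 2716322 in M351 to 17073285 in M624. In F187, M351, M408 and M9, between 22.7% and 79.3% of the counts fell on 3 genes that carry satellite repeats, against at most 0.0235% in the other 5 libraries. M624 and M664 stood apart in another way, with the small nuclear RNA Rn7sk at 3.47 and 6.35 CPM against 6545 CPM or more elsewhere. After the satellite genes, M9 kept 731506 counts. On the TMM scale, 3 counts equaled 2.39 CPM in M9 and 0.114 CPM in M624. Because whole tumors were sequenced, fewer cells of a type and less RNA per cell cannot be told apart for any gene below.

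In the edgeR test between the groups, 15365 genes passed the filter on low counts and 809 of them (5.27%) were called, at an adjusted p below 0.05 and a fold change over 1.5. Of all genes tested, 3% were called lower and 2.26% were called higher with Myc. Of the 10 genes, 8 passed the filter and 1 was called, Cxcl12, which was lower in the Myc-knockin tumors. Ccl9, Cx3cr1, Ccr2 and Cx3cl1 had lower fitted levels in the Myc-knockin tumors that did not pass the test, and Ccl2, Ccl3 and Ccl7 had fitted differences near 0 or above it. Ccl4 and Ccl5 did not pass the filter. The median log2 fold change, Myc knockin minus p53 driven, was -0.83 over the 8 genes and 0.14 over all genes tested, of which 43.8% were below 0. The unadjusted p was under 0.05 for Cxcl12, Ccl9 and Cx3cr1, as for 26.8% of all genes.

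**Figure D1:**
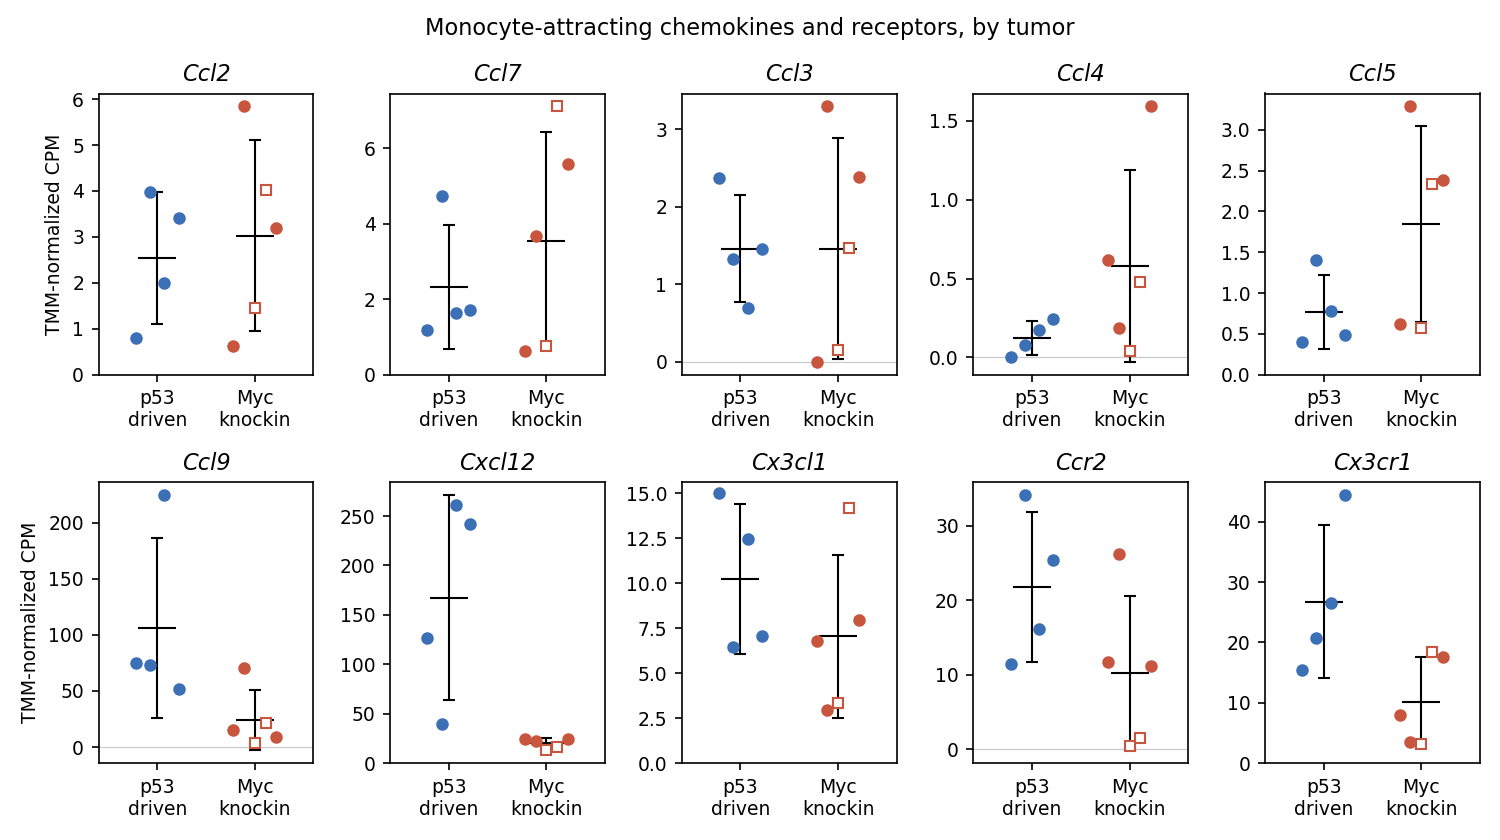
Level of each of the 10 genes in each tumor, in TMM-normalized CPM on a linear axis. Each point is 1 tumor, open squares are M624 and M664, the horizontal bar is the group mean and the whisker the SD. Cxcl12 is the gene whose 5 Myc-knockin tumors all lie below the 4 p53-driven tumors.

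Cxcl12 lies on chromosome 6 at 117168535 to 117181367 (mm10, plus strand). The 250 bases before its start and those before the start of Ccl9 on chromosome 11 are shown because these 2 genes had the smallest p values of the 10. They are RefSeq sequence of GRCm38.p6, at chr6:117168285-117168534 on the plus strand and chr11:83578637-83578886 on the minus strand, written 5′ to 3′ with the matches to the motifs named below in capitals.
Cxcl12: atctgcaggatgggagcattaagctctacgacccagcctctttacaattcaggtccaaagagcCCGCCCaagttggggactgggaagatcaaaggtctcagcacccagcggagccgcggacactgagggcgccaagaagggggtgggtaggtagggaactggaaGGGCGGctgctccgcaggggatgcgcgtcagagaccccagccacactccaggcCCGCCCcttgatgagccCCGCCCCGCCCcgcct
Ccl9: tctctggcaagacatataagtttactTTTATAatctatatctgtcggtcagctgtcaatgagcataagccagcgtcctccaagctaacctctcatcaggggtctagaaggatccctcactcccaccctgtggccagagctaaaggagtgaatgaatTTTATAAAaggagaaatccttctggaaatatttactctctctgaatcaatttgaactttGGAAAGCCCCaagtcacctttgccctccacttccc

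RefSeq start regions of 300 bases, reaching from 250 before to 50 after the start, were found for 6 of the 10 genes (Cxcl12, Ccl9, Ccl3, Cx3cl1, Ccr2 and Cx3cr1). They were searched on both strands for 5 motifs, and matches may overlap each other. The GC box GGGCGG was found 5 times before Cxcl12, of which the last 2 share a base, and in 35.7% of 32851 start regions. Before Ccl9 there were 3 matches to the TATA box TATAAA, of which 2 overlap on opposite strands, and 1 to the kappa B site GGGNNNTTCC. These motifs were found in 13.6% and 5.56% of all start regions. The E-box CACGTG, the sequence that MYC and MAX bind, was in none of the 6 regions and in 7.15% of all. The start region of Cx3cl1 held a GC box, a TATA box and 2 matches to the ETS core GAGGAA, which also occurred once before Ccl3 and in 28.3% of all regions. Those of Ccr2 and Cx3cr1 held none of the 5 motifs. These matches describe the sequence and are not binding sites.

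CXCL12 is the ligand of CXCR4. In the p53-driven tumors Cxcl12 was at 127 CPM in F187, 39.7 CPM in F325, 261 CPM in F331 and 242 CPM in F368. In the Myc-knockin tumors it was at 24.6 CPM in M351, 22.2 CPM in M408, 24.7 CPM in M9, 13.4 CPM in M624 and 16.3 CPM in M664. The groups did not overlap, the lowest p53-driven tumor being F325, and the Myc-knockin tumors lay within a narrow range. Among all genes tested, 13% had groups that did not overlap in either direction and 7.54% had every Myc-knockin tumor below every p53-driven tumor. The group means were 20.2 ± 5.12 CPM (SD, n = 5) in Myc-knockin and 168 ± 104 CPM (SD, n = 4) in p53-driven tumors, a ratio of 8.28.

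The log2 fold change of Cxcl12, Myc knockin minus p53 driven, was -3.07 (SE 0.49, 95% interval -4.15 to -1.99), with an adjusted p of 0.0188 by edgeR's quasi-likelihood test. It ranked 44 of 15365 genes, both by p and by the size of the fall. Without F331 the log2 fold change was -2.77 with an adjusted p of 0.0640, in a fit that called 6 genes in all. Without F368 it was -2.87 with an adjusted p of 0.0667, in a fit that called 5 genes in all. The call of Cxcl12 thus rested on having both tumors, as did most of the 809 calls made with all 9 tumors. In the low libraries M9 and M351, 31 and 40 reads fell on Cxcl12, of which 10.2 and 9.18 would be expected from the level at which reads fell on silent chemosensory receptor genes. With this background subtracted in every library the fold change was -3.11 with an adjusted p of 0.0134.

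Markers of cells that can make CXCL12 were read beside it. The summed level of 7 markers of CXCL12-abundant stromal cells was 311 to 480 CPM in the Myc-knockin and 637 to 1077 CPM in the p53-driven tumors, without overlap, and none of the 7 was at 0 in any tumor. None of the 6 tested markers was called (median log2 fold change -0.98, with 5 below 0 and Ebf3 at 0.44), and Pdgfra and Pdgfrb, which encode the PDGF receptors of mesenchymal cells, had log2 fold changes of -1.05 (adjusted p = 0.153, edgeR) and -0.92 (adjusted p = 0.157). The summed level of 11 osteoblast markers was 3622 to 41576 CPM in the Myc-knockin and 66090 to 141760 CPM in the p53-driven tumors, and Bglap, encoding osteocalcin, was the 1 called. Col1a1 and Col1a2, the genes of type I collagen, made up most of that sum, and the median log2 fold change of the 11 was -1.26, with Ibsp at -0.76, Alpl at -0.83 and Phex at -0.37.

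Set against the mean log2 level of the 6 stromal markers in the same tumor, a comparison chosen after the values were seen and not tested, log2 Cxcl12 was lower by 0.80 ± 0.59 in Myc-knockin tumors (SD, n = 5) and higher by 0.75 ± 0.95 in p53-driven tumors (SD, n = 4). These ranges overlapped. Against the 11 osteoblast markers the difference between groups was -0.45, and against 7 endothelial markers it was -2.33, again with overlapping ranges. The part of these cell types in the fall of Cxcl12 was not tested.

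**Figure D2:**
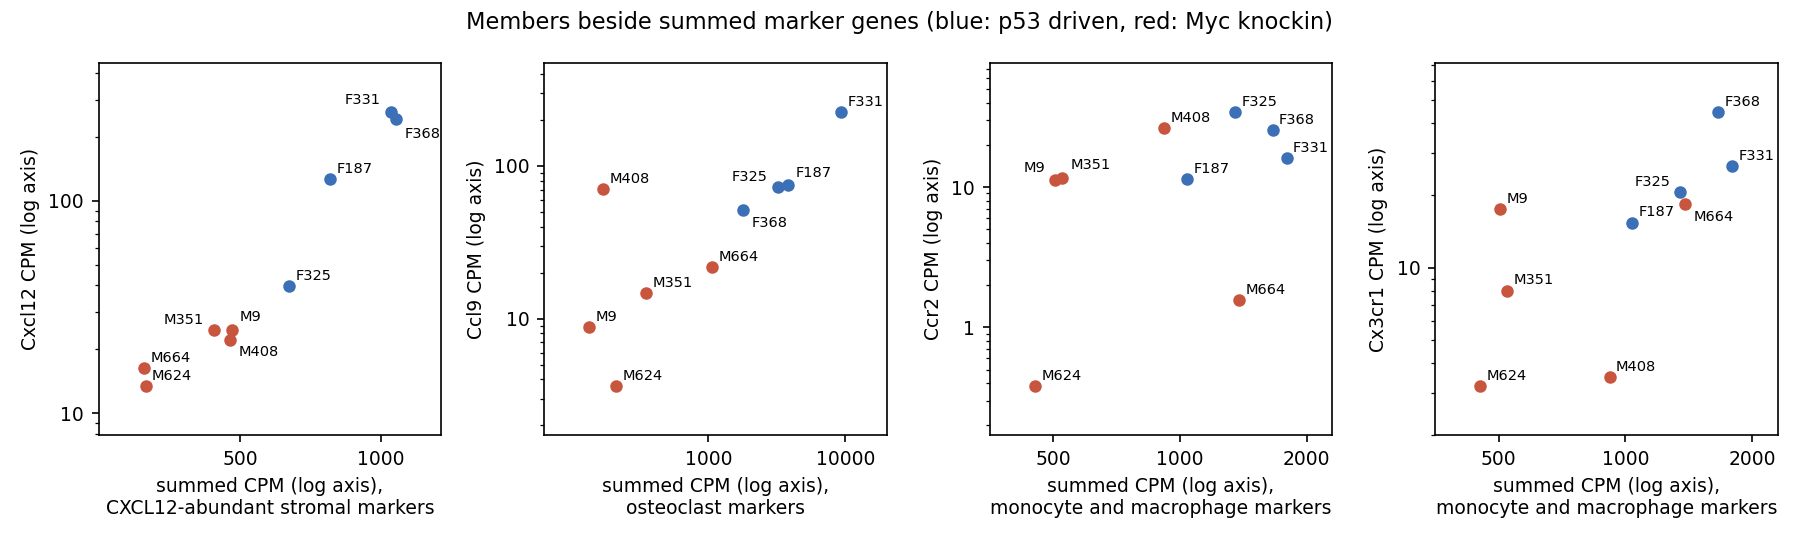
Each point is 1 tumor, with the CPM of a gene (log axis) against the summed CPM of a marker list (log axis). Panels show Cxcl12 with CXCL12-abundant stromal markers, Ccl9 with osteoclast markers, and Ccr2 and Cx3cr1 with monocyte and macrophage markers. M408 lies high in Ccl9 at a low osteoclast sum, and M664 and M624 lie low in Ccr2.

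The receptors of CXCL12 did not pass the test. Cxcr4, the signaling receptor, was at 15.4 ± 13.5 CPM in Myc-knockin and 20.6 ± 6.76 CPM in p53-driven tumors (log2 fold change -0.39, adjusted p = 0.656 by edgeR). Ackr3, an atypical receptor that takes CXCL12 up and degrades it, was at 20.2 ± 16.6 CPM and 8.86 ± 3.31 CPM (log2 fold change 1.22, adjusted p = 0.185).

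CCL9 attracts cells that carry CCR1. In the p53-driven tumors Ccl9 was at 75.0 CPM in F187, 73.1 CPM in F325, 225 CPM in F331 and 51.5 CPM in F368. In the Myc-knockin tumors it was at 14.8 CPM in M351, 70.3 CPM in M408, 8.76 CPM in M9, 3.62 CPM in M624 and 21.7 CPM in M664. M408 lay inside the range of the p53-driven tumors and the other 4 Myc-knockin tumors lay below it. The log2 fold change was -2.13 (SE 0.75, 95% interval -3.78 to -0.49) and did not pass edgeR's test (adjusted p = 0.102). By DESeq2, which called 17.4% of all genes tested, the same contrast had an adjusted p of 0.0247. In edgeR without M408 the log2 fold change was -3.08 with an adjusted p of 0.0370. Without F331 it was -1.48 (adjusted p = 0.311 by edgeR), and without M624 and M664 it was -1.61 (adjusted p = 0.224 by edgeR).

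Osteoclast markers were read beside Ccl9. Of 10 osteoclast markers tested, 8 were called lower in the Myc-knockin tumors, with a median log2 fold change of -3.76 over the list. Among them were Dcstamp, needed for fusion of precursors (-5.02), Oscar, a costimulatory receptor (-4.67), Calcr, the calcitonin receptor (-4.44), and Atp6v0d2, a proton pump subunit (-4.21). Their summed level was 136 to 1070 CPM in the Myc-knockin and 1796 to 9333 CPM in the p53-driven tumors. F331 was highest both in this sum and in Ccl9. M408 went the other way, with 70.3 CPM of Ccl9 at a marker sum of 171 CPM and with Dcstamp at 0. The part of osteoclasts in the level of Ccl9 was not tested.

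Ccr1, which encodes the receptor of CCL9 and CCL3, was at 11.8 ± 12.3 CPM in Myc-knockin and 53.8 ± 41.9 CPM in p53-driven tumors. Its log2 fold change of -2.14 (SE 0.79) did not pass edgeR's test either (adjusted p = 0.117). Over the 9 tumors the log2 levels of Ccl9 and Ccr1 had a Pearson r of 0.98, which was the third highest of 9539 genes with a mean of at least 10 CPM, after Prkch and Tor4a (both 0.99).

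CCR2 marks classical monocytes. In the p53-driven tumors Ccr2 was at 11.5 CPM in F187, 34.1 CPM in F325, 16.1 CPM in F331 and 25.4 CPM in F368. In the Myc-knockin tumors it was at 11.7 CPM in M351, 26.2 CPM in M408, 11.2 CPM in M9, 0.381 CPM in M624 and 1.55 CPM in M664. The groups overlapped, with M408 above all p53-driven tumors but F325, while M624 and M664 were below every other tumor. Across the 9 tumors Ccr2 spanned 89.6-fold, the widest range of the 8 genes with reads in every tumor. The log2 fold change was -1.14 (SE 0.89, 95% interval -3.09 to 0.81, adjusted p = 0.440 by edgeR).

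The difference in Ccr2 followed which libraries were compared. With M624 and M664 left out it was -0.29 (adjusted p = 0.701 by edgeR). Without F187, M351, M408 and M9, which leaves 3 p53-driven tumors against M624 and M664, it was -4.67 (adjusted p = 0.0111 by edgeR). In that last fit 27.9% of all genes tested were called. M624 and M664 are also the libraries that lacked Rn7sk, so that the level of Ccr2 and the kind of library cannot be told apart in them. In M9 and M351 the values rested on 14 and 19 reads, of which 8.40 and 7.59 would be expected from background, leaving 4.46 and 7.02 CPM. The 3 genes most like Ccr2 over the 9 tumors were Gm8995, Eif3s6-ps2 and Aldoart1 (Pearson r 0.97 each). Because Ccr2 was far lowest in M624 and M664, this likeness and the kind of library cannot be told apart either.

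CX3CR1 is carried by patrolling monocytes and many tissue macrophages. In the p53-driven tumors Cx3cr1 was at 15.4 CPM in F187, 20.7 CPM in F325, 26.5 CPM in F331 and 44.5 CPM in F368. In the Myc-knockin tumors it was at 8.0 CPM in M351, 3.48 CPM in M408, 17.5 CPM in M9, 3.2 CPM in M624 and 18.4 CPM in M664. M9 and M664 lay within the range of the p53-driven tumors and the other 3 lay below it. The log2 fold change was -1.44 (SE 0.57, 95% interval -2.69 to -0.19, adjusted p = 0.137 by edgeR). In M9 and M351 the values rested on 22 and 13 reads. With background subtracted in every library, M9 was at 13.1 CPM, below the lowest p53-driven tumor, F187, at 14.1 CPM. M351 was then at 4.89 CPM, and M664, at 18.3 CPM, stayed within the p53-driven range. The exons of Cx3cr1 share 78 bases with Gm33858 on the opposite strand, and whether counting used strand is not given in the sources used here.

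M408 and M664 held the 2 receptors in opposite order. In M408 Ccr2 was at 26.2 CPM and Cx3cr1 at 3.48 CPM, while in M664 Ccr2 was at 1.55 CPM and Cx3cr1 at 18.4 CPM.

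Both receptors were also set against the mean log2 level of 20 monocyte and macrophage markers in the same tumor. The summed level of these markers was 452 to 1385 CPM in the Myc-knockin and 1040 to 1795 CPM in the p53-driven tumors, and only Ly6c2, in M624, was at 0. Of the 20, 3 were called lower and none higher. These were Csf1r, the receptor of the macrophage growth factor CSF1 (-2.47), the lysosomal protein gene Cd68 (-2.27) and the adaptor gene Tyrobp (-2.13). The median log2 fold change of the 20 was -0.35, with 13 below 0 and 7 above it, up to 1.17. Relative to the markers, log2 Ccr2 was at -4.05 in M624 and -4.42 in M664, and between -1.14 and -0.14 in the other 7 tumors. The group difference was -1.24 for Ccr2 (exact permutation p = 0.389), -0.90 for Cx3cr1 (exact permutation p = 0.151) and -1.83 for Ccl9 (exact permutation p = 0.0397). Adjusted over these 3 the exact permutation p were 0.389, 0.226 and 0.119. Without M624 and M664 the difference in Ccr2 changed sign to 0.25. With 1 tumor left out at a time, that in Cx3cr1 ran from -1.22 without M9 to -0.45 without M408.

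CX3CL1 is the ligand of CX3CR1. In the p53-driven tumors Cx3cl1 was at 15 CPM in F187, 6.46 CPM in F325, 12.5 CPM in F331 and 7.05 CPM in F368. In the Myc-knockin tumors it was at 6.77 CPM in M351, 2.93 CPM in M408, 7.97 CPM in M9, 3.35 CPM in M624 and 14.2 CPM in M664. In M9 and M351 these were 10 and 11 reads, of which 4.88 and 4.41 would be expected from background, leaving 4.08 and 4.05 CPM. The groups overlapped and the log2 fold change was -0.53 (SE 0.52, 95% interval -1.67 to 0.62, adjusted p = 0.550 by edgeR). Cx3cl1 and Cx3cr1 varied together over the 9 tumors, with a Pearson r of 0.71 of their log2 levels and of 0.63 once the group means were removed. Among the p53-driven tumors alone this did not hold. F187 was highest there in Cx3cl1 (15 CPM) and lowest in Cx3cr1 (15.4 CPM), and F368 was highest in Cx3cr1 (44.5 CPM) with Cx3cl1 at 7.05 CPM.

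The ligands of CCR2 were low in both groups. Ccl2 was at 0.790, 3.97, 1.99 and 3.40 CPM in F187, F325, F331 and F368, and at 0.616, 5.86, 3.19, 1.45 and 4.02 CPM in M351, M408, M9, M624 and M664. Ccl7 was at 1.18, 4.74, 1.64 and 1.70 CPM in F187, F325, F331 and F368, and at 0.616, 3.66, 5.58, 0.762 and 7.12 CPM in M351, M408, M9, M624 and M664. Each gene had a single read in M351, and the Myc-knockin values spanned those of the p53-driven tumors at both ends. The log2 fold change was 0.25 for Ccl2 (SE 0.71, 95% interval -1.31 to 1.81, adjusted p = 0.856 by edgeR) and 0.59 for Ccl7 (SE 0.80, 95% interval -1.17 to 2.35, adjusted p = 0.675). These intervals leave room for a change of more than 2-fold either way. The sign of Ccl2 turned to -0.14 with limma-voom that weights libraries by quality and to -0.16 without the 4 libraries rich in satellite reads.

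Ccl3, Ccl4 and Ccl5, which encode inflammatory chemokines of monocytes and T cells, had few reads. Ccl3 was at 2.37, 1.32, 0.692 and 1.46 CPM in F187, F325, F331 and F368, and at 0, 3.30, 2.39, 0.152 and 1.47 CPM in M351, M408, M9, M624 and M664. Its group means were 1.46 CPM in both, and the log2 fold change was 0.03 (SE 0.97, 95% interval -2.10 to 2.16, adjusted p = 0.990 by edgeR), with a sign that turned under scaling by library size alone (-0.02). Ccl4 had 11 reads in M664 and at most 2 in any other tumor, so that no difference was detectable at this depth.

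Ccl5 was at 0.395, 1.40, 0.778 and 0.486 CPM in F187, F325, F331 and F368, and at 0.616, 3.30, 2.39, 0.572 and 2.33 CPM in M351, M408, M9, M624 and M664. M408, M9 and M664 were above all p53-driven tumors, although the value of M9 was 3 reads. The group means of Ccl5, 1.84 ± 1.20 CPM in Myc-knockin (SD, n = 5) and 0.765 ± 0.454 CPM in p53-driven tumors (SD, n = 4), differed by 1.08 CPM (exact permutation p = 0.127, two-sided, of a smallest possible 0.00794). For Ccl4 the difference was 0.458 CPM (exact permutation p = 0.151), and it was 0.233 CPM without M9, whose value is 2 reads, and 0.225 CPM with background subtracted.

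**Figure D3:**
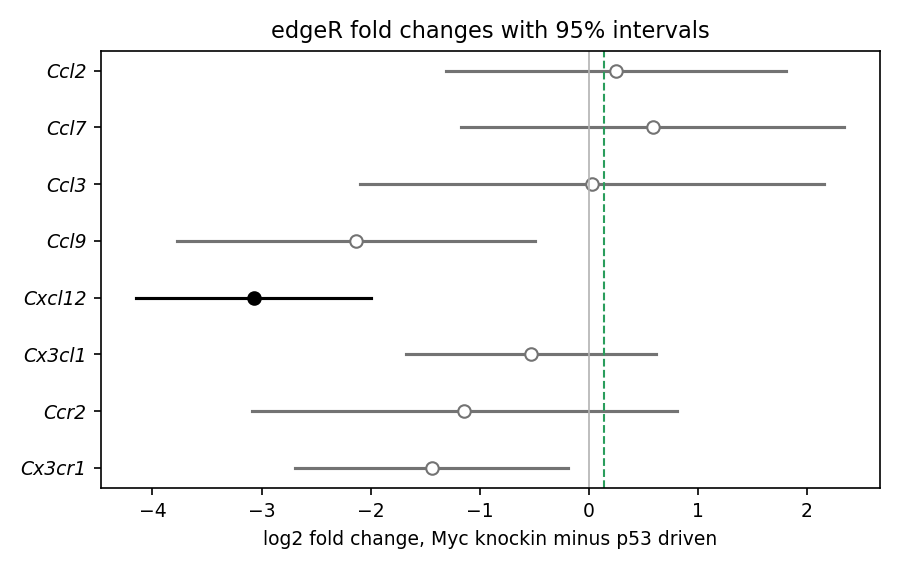
Log2 fold change of the 8 genes that passed the filter, Myc knockin minus p53 driven, with 95% intervals from edgeR. The filled point is Cxcl12, the gene called, and the dashed line is the median of all genes tested, 0.14. The intervals of Ccl9 and Cx3cr1 also stay below 0, although neither gene passed the adjusted test.

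Ccl2, Ccl5 and Ccl7 varied together from tumor to tumor. The Pearson r of log2 levels over the 9 tumors was 0.84 for Ccl5 and Ccl7, 0.83 for Ccl2 and Ccl7 and 0.76 for Ccl2 and Ccl5, and with the group means removed it was 0.92, 0.83 and 0.85. All 3 genes had a single read in M351 and at most 3 reads in F187, both shallow libraries. Cxcl12 and Ccl9 had an r of 0.73 that went down to 0.27 once the group means were removed. These are descriptions over tumors that also share differences in depth. The genes most like Cxcl12 were C1galt1c1 (0.96), Ap1s2 (0.95) and Rsrc1 (0.95), those most like Cx3cr1 were Nacc2 (0.99), Iqsec2 (0.98) and Sec22a (0.96), and those most like Cx3cl1 were Rit1 (0.93), Slc38a6 (0.91) and Dll4 (0.90). For the low genes they were Rtn4, Angptl2 and Stim1 with Ccl2 (0.90, 0.89 and 0.86), Stim1, Rsad2 and H2bc4 with Ccl7 (0.93, 0.88 and 0.87), and Ranbp9, Elmo2 and Zbed3 with Ccl3 (0.86, 0.86 and 0.85).

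Levels can be compared roughly between genes once they are divided by exon length. The length used here is that of all annotated exons of a gene together, which may differ from that of the transcripts present. In the p53-driven tumors Ccl9 had the highest mean at 34.9 CPM per kilobase, followed by Cxcl12 at 20.5 and Cx3cr1 at 5.94. Ccr2, Ccl7, Cx3cl1, Ccl2 and Ccl3 followed between 3.22 and 1.91, with Ccl5 at 0.797 and Ccl4 at 0.187. Of these neighbors, Ccl5 and Ccl4 alone had ranges that did not overlap. In the Myc-knockin tumors the order was Ccl9 at 7.83, Ccl7 at 4.43, Ccl2 at 2.66, Cxcl12 at 2.48, Cx3cr1 at 2.24, Ccl5 at 1.92, Ccl3 at 1.91, Cx3cl1 at 1.79, Ccr2 at 1.51 and Ccl4 at 0.880 CPM per kilobase. All neighbors in that order overlapped.

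**Figure D4:**
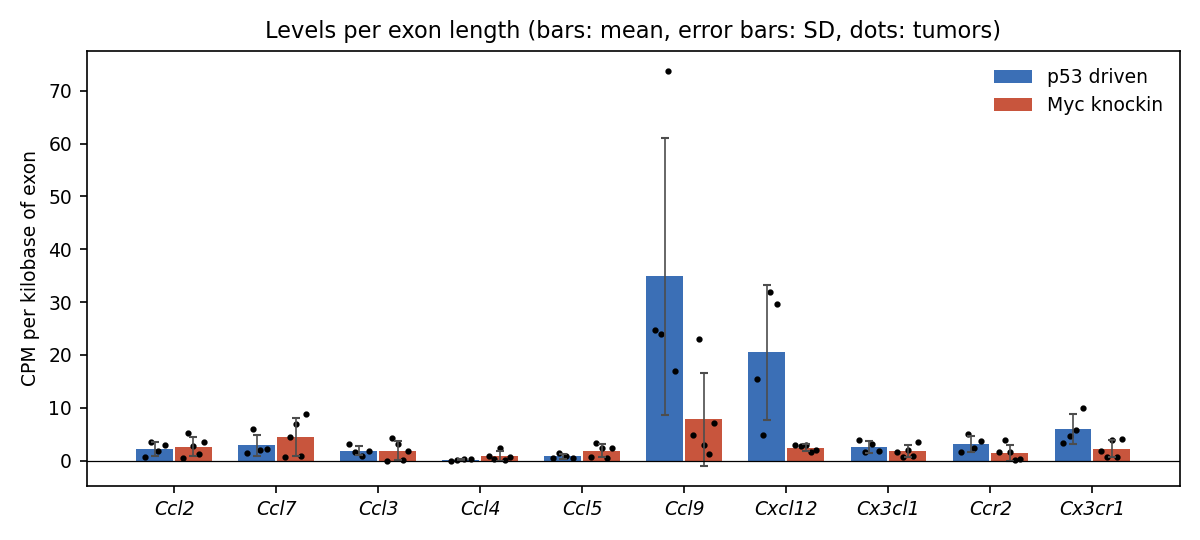
Mean level of each gene in CPM per kilobase of exon (bars), with the SD (error bars) and the single tumors (dots), for p53-driven and Myc-knockin tumors. The means of Ccl9 and Cxcl12 stand above those of the other 8 genes in the p53-driven group, at 34.9 and 20.5 CPM per kilobase. In F325 alone, Cxcl12 at 4.86 lay below Ccl7 at 5.92 and Ccr2 at 5.05 CPM per kilobase.

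On chromosome 11 (mm10) 6 of these genes lie in 2 clusters, and their neighbors were read beside them. In the first, Ccl2 (82035571 to 82037453) and Ccl7 (82045712 to 82047525) sit beside Ccl11, Ccl12, Ccl8 and Ccl1. Ccl12, another CCR2 ligand of the mouse, had a log2 fold change of -0.69 (adjusted p = 0.511 by edgeR) and Ccl8, a monocyte attractant, of -0.06 (adjusted p = 0.979). Ccl11, an eosinophil attractant, and Ccl1 had too few reads to be tested. In the second, Ccl5 (83525778 to 83530518), Ccl9 (83572919 to 83578636), Ccl6, Ccl3 (83647844 to 83649355) and Ccl4 (83662584 to 83664683) follow each other, with E230016K23Rik and Rpl9-ps1 between them untested. Ccl6, a myeloid chemokine next to Ccl9, was at 45.0 ± 79.2 CPM in Myc-knockin (SD, n = 5) and 16.8 ± 20.8 CPM in p53-driven tumors (SD, n = 4), with a log2 fold change of 1.41 (adjusted p = 0.513). A single Myc-knockin tumor, M408, held 186 CPM of it, and without that tumor the Myc-knockin mean was 9.71 CPM, below the p53-driven mean. The other genes of the set are Cx3cl1 on chromosome 8 (94772009 to 94782427), Ccr2 on chromosome 9 (124101950 to 124113557) and Cx3cr1 on chromosome 9 (119901616 to 120069879).

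Other chemokines and receptors were counted on lists. Of 30 other chemokine ligands 11 were tested and none was called in either direction, with a median log2 fold change of 1.06 and 9 of the 11 above 0. The 2 with the highest mean CPM over all 9 tumors were Ccl6 and Cxcl14, a ligand of epithelia and stroma (1.18, adjusted p = 0.404 by edgeR). Ccl19 and Ccl21a were at 0 in all tumors. Of 22 other receptors 7 were tested and none was called, with a median of -0.73 and 6 of the 7 below 0. Ackr1, an atypical receptor of venules and red cells, was not tested. Beside these medians, that of all genes tested was 0.14. With all genes of at least 1 count in the fit, it was 0.97 over 47719 genes. Background reads on silent chemosensory receptor genes were 1.24 per kilobase in M9, 1.12 in M351 and 0.71 in F187. They were at most 0.151 per kilobase in the other libraries. The part of background in the medians of the lists was not tested.

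Genes that act inside the cell downstream of chemokine receptors were called in part. Of 26 tested, 6 were called lower and none higher, beside 3% and 2.26% of all genes tested. Among the 6 were Grk3, a kinase that turns receptors off (-2.25), Rac2, a GTPase of blood cells (-2.15), and Elmo1, which activates Rac (-1.63). The others called were Pik3cg, a PI 3-kinase driven by G proteins (-1.63), Pik3r5 and Was. The median log2 fold change of the 26 was -0.49, with 19 below 0 and 7 above it, up to 1.86. Rac2, Pik3cg and Was are active mainly in blood cells. Of the markers given above, 3 of 20 of macrophages and 8 of 10 of osteoclasts were called lower, and the part of these cells was not tested.

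Of 15 enzymes that cut or shed chemokines 13 were tested, and 1 was called higher and 2 lower (median -0.41). Mmp12, the macrophage elastase, rose from 3.95 ± 3.74 CPM in p53-driven to 27.2 ± 12.9 CPM in Myc-knockin tumors (log2 fold change 2.91, SE 0.62, adjusted p = 0.031 by edgeR). Mmp2, a gelatinase that trims CCL7 and CXCL12, and Mmp14, its membrane-bound activator, both had a log2 fold change of -1.79 (adjusted p of 0.025 and 0.041). Of 23 genes of NF-kB and interferon signaling, which induces many chemokines, 19 were tested and 1 was called, the NF-kB inhibitor Tnfaip3 (-2.03, adjusted p = 0.033), with a median of -0.49. Tnfrsf1a, a TNF receptor (-0.82, adjusted p = 0.152), and Nfkb1 (-0.51, adjusted p = 0.271) did not pass.

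Markers of other leukocytes were low. Of 13 T and NK cell markers 2 were tested, of 8 neutrophil markers 5 and of 5 B cell markers 2, and none was called. Their medians were 1.07, 1.09 and 1.79 on the log2 scale, beside 0.14 for all genes tested. With all genes of at least 1 count in the fit, the median of all genes was 0.97. By the mean over all 9 tumors the highest were Cd4 and Lck, S100a9 and S100a8, and Pax5 and Cd79b. S100a9 reached 62.8 CPM and S100a8 41.9 CPM in a Myc-knockin tumor, against group medians of 3.54 and 1.55 CPM. Of 7 endothelial markers, among them Cdh5 and Pecam1, none was called (median -0.42). Of 6 skeletal muscle markers, of which Acta1 and Myh4 had the highest mean CPM over all 9 tumors, none was called either (median -1.0), and their sum ran from 11.1 to 4740 CPM among the p53-driven tumors alone.

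**Figure D5:**
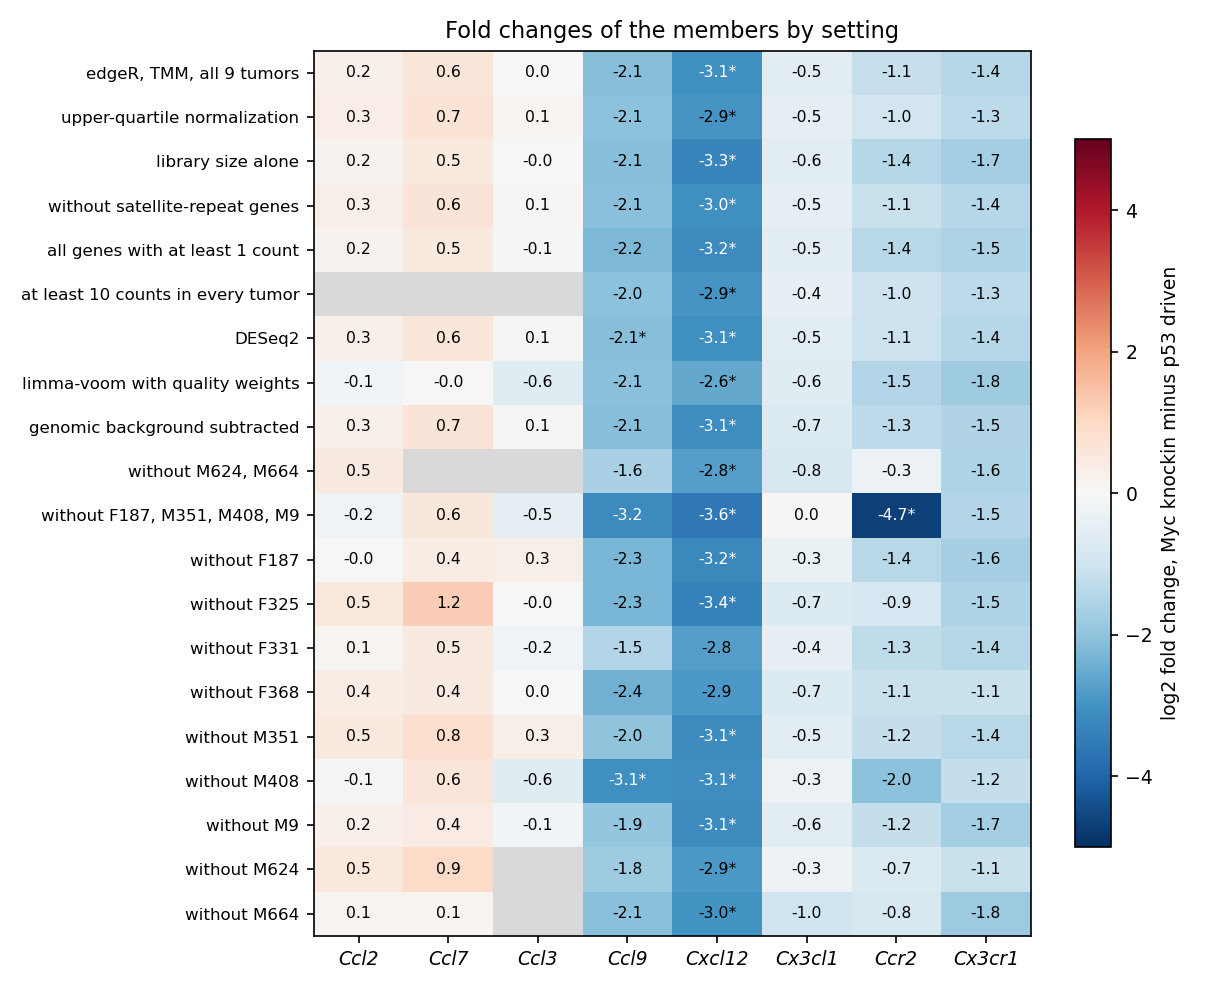
Log2 fold change of each tested gene (columns) under each setting (rows), Myc knockin minus p53 driven. Asterisks mark an adjusted p below 0.05 with a fold change over 1.5, and gray cells mark genes that did not pass the filter. Cxcl12 is below 0 in every row shown, and the sign of Ccl3 changes between rows.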

How the data were processed

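The authors enriched mRNA with oligo-dT, trimmed reads with Trim Galore, aligned them with STAR to mm10 and deposited raw counts per gene from featureCounts, per the labels and the study's methods. The versions of STAR and featureCounts and the strand setting are not given in the sources used here. The 10 members and all gene lists were chosen with earlier results of these data known. Counts were tested with edgeR 4.0.16 in R 4.3.3 (TMM factors, filterByExpr with a minimum count of 10, glmQLFit and glmQLFTest, Benjamini-Hochberg adjustment over all genes tested, all 9 tumors, no covariate), and the test was tried on simulated counts first. A gene was called at adjusted p under 0.05 with a change of over 1.5-fold. Log2 levels used a prior count of 2. Genes left out by the filter, and genes relative to markers, were compared by two-sided exact permutation over 126 arrangements. P-values measure the spread between these tumors only, and no source says how many mice they came from. Coordinates and exon lengths are from GENCODE vM21, and start regions are from RefSeq. Genes other than members were named by level, call or likeness, and 1 gene among them is not reported here. DESeq2 1.42.0, limma-voom with sample quality weights (limma 3.58.1) and other scalings, filters and tumor subsets were alternatives.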

Additional observations from a re-analysis of the deposited data

Results flagged for a closer look

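Of 26 gene and group combinations screened for a tumor far from the rest of its group, 3 were picked out. All 3 were high values in CPM, a scale that sets high values further apart than the log2 scale does. Whether as many would arise by chance was not tested. Ccl7 in the p53-driven group was at 4.74 CPM in F325 and at 1.70 CPM or less in the other 3 tumors. Ccl9 was at 225 CPM in F331, with the remaining p53-driven tumors between 51.5 and 75.0 CPM. Ccl9 was also at 70.3 CPM in M408, with the remaining Myc-knockin tumors between 3.62 and 21.7 CPM.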

How the results depend on the processing

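Cxcl12 stayed below 0 under every alternative run and was called under all but 2 of them, the omission of F331 or of F368. Of the 10 genes, 2 were called with DESeq2 (Cxcl12 and Ccl9, the latter at -2.13), which called 17.4% of all genes tested. Without F187, M351, M408 and M9, 2 of the 9 tested were called (Cxcl12 and Ccr2, the latter at -4.67), beside 27.9% of all genes tested. Among all genes, 136 were called with scaling by library size alone, 494 without the satellite genes, 494 with all genes that had at least 1 count, 1316 with at least 10 counts in every tumor, 2670 with DESeq2, 1663 with weighted limma-voom, 4595 without the 4 libraries rich in satellite reads and 2248 at an adjusted p under 0.1. Signs turned for Ccl3 (-0.020 by library size, -0.069 with all genes of at least 1 count, -0.59 with weighted limma-voom and -0.47 without those 4 libraries), Ccl2 (-0.14 with weighted limma-voom, -0.16 without the 4), Ccl7 (-0.00021 with weighted limma-voom), Cx3cl1 (0.042 without the 4) and Ccr2 relative to macrophage markers (0.25 without M624 and M664). The cause was not tested. Leaving out 1 tumor at a time, 5 (0.0292%, without F368) to 1588 (10.4%, without M9) genes were called, with 6 without F331 and 8 without F325. Of the 10 genes, 0 to 2 were called over these runs (2 without M408, beside 5.47% of all genes tested). The same range held for those called lower. The log2 fold change then ranged from -3.40 (without F325) to -2.77 for Cxcl12, -3.08 to -1.48 for Ccl9, -0.10 to 0.54 for Ccl2, -0.59 to 0.30 for Ccl3, 0.11 (without M664) to 1.22 (without F325) for Ccl7, -0.998 (without M664) to -0.26 (without M624) for Cx3cl1 and -2.05 (without M408) to -0.73 (without M624) for Ccr2. For Cx3cr1 it ranged from -1.83 (without M664) to -1.10 (without F368). With fewer tumors in the fit, the adjusted p also rests on fewer degrees of freedom. Scaling by library size alone moved the median log2 fold change of all genes from 0.14 to 0.03. With upper-quartile factors 345 of 971 calls were lower, against 461 of 809 with TMM. No paired analysis was possible because the columns carry no replicate numbers. Depth limits Ccl3, Ccl4 and Ccl5 most, with 0 to 3 reads each in M351 and M9.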
